A study of Mus musculus with 6 samples.

Results

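Fos, Fosb, Fosl1, Fosl2, Jun, Junb, Jund and Atf3 are 8 genes whose protein products form the dimeric transcription factor AP-1 or join it. They were chosen by gene symbol, and all 8 had a row among the 24315 rows of the table of expression values. Levels were measured by RNA sequencing of whole olfactory mucosa (the odor-sensing lining of the nose with the tissue beneath it) in C57BL/6 mice, wild type in genotype and sampled on postnatal day 11. Each of 3 mice gave 1 library from its closed nostril and 1 from its open nostril, which makes 3 libraries per side. Closing a nostril keeps odor-laden air from that side. All mice carried a closed side, so the open side is a within-animal control and not an unoperated nose. When the nostril was closed, and for how long, is not stated in the sources used here.

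Immediate early genes are transcribed within minutes of a stimulus and without new protein synthesis, and their messages decay quickly. In neurons, calcium entry and cyclic AMP act through kinases on factors already bound at their promoters, among them the cyclic AMP response element binding protein (CREB) and serum response factor. Proteins of the Fos family cannot pair with each other and bind DNA only as partners of a Jun protein, whereas Jun proteins also pair among themselves. In olfactory neurons Fos message is widely used as a sign of recent activity, but glial, epithelial and immune cells make it too after injury or handling.

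The promoters of the members are shown because CREB is known to act near the start of Fos; Jun is printed as one without a match. RefSeq (GRCm38.p6) gave a promoter for 7 of the 8 members. The 150 bases before the start were searched on both strands for TGACG, the core of the cyclic AMP response element, which appears as CGTCA when it lies on the other strand. Capitals mark each match, and the sequences run 5′ to 3′ on the strand of the gene. Fos lies at chr12:85473740-85473889 (+), Fosb at chr7:19310046-19310195 (-), Junb at chr8:84978749-84978898 (-), Atf3 at chr1:191183334-191183483 (-) and Jun at chr4:95052223-95052372 (-).
Fos: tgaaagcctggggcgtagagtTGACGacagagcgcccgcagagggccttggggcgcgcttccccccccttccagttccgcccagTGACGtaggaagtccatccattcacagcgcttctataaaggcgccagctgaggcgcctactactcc
Fosb: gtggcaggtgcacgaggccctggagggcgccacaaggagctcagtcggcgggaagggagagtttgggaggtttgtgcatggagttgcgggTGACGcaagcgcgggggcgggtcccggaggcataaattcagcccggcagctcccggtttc
Junb: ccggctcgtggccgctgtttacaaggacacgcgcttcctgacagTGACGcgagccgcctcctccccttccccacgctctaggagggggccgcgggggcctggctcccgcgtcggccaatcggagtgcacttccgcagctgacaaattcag
Atf3: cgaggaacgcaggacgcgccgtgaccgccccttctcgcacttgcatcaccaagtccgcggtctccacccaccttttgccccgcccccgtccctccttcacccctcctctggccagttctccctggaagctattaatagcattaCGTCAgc
Jun: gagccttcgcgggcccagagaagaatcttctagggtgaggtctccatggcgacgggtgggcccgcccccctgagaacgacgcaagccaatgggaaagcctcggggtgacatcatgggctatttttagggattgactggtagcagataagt

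Fos held 2 matches, the nearer with its first base 66 bases before the start, and Fosb, Junb and Atf3 held 1 each. Jun, Fosl2 and Jund held none, so that 4 of the 7 promoters had the letters, against 13.3% of the 32851 mouse promoters searched in the same way. Neither the AP-1 site (TGACTCA or TGAGTCA) nor the CArG box, which serum response factor binds, occurred in any of the 7 windows. These were found in 2.84% and 0.916% of all promoters. For the AP-1 site only the letters given were searched, so variants of it, in the Jun window or elsewhere, were not counted. The serum response element of Fos lies farther upstream than this window. A match describes the letters only.

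Expression is given as FPKM, in which fragments are divided by transcript length and by library size, so levels can be set side by side between genes. Over the 6 libraries Jund averaged 108.0 FPKM, Jun 63.4, Junb 20.8, Fos 18.4, Fosl2 5.50, Atf3 2.40, Fosb 0.936 and Fosl1 0.014. Each gene in this order exceeded the next in 6 of 6 libraries, except that Junb exceeded Fos in 5 of 6. Junb and Fos also overlapped in their ranges, 14.7 to 34.0 FPKM for Junb and 6.07 to 37.8 FPKM for Fos. Jun family message exceeded Fos family message on either side.

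**Figure D1:**
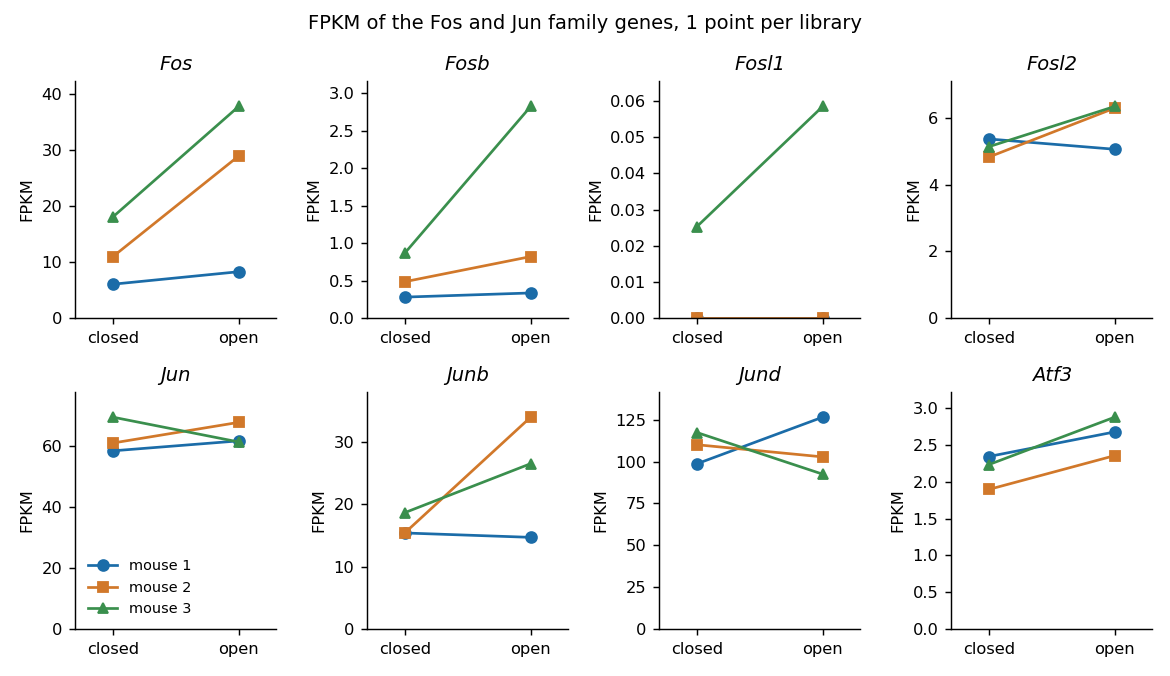
FPKM of each of the 8 genes on the closed and the open side, with 1 point per library and a line joining the sides of each mouse. In all 3 mice Fos, Fosb and Atf3 had their lower point on the closed side, while the lines of Jun and Jund ran in both directions.

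Fos, the founding member of the family and the partner that gives AP-1 its rapid response, measured 6.07, 11.0 and 18.1 FPKM on the closed side of mice 1, 2 and 3, against 8.30, 29.0 and 37.8 FPKM on their open side. The closed side had the lower value in each mouse (3 of 3), but the sides overlapped, since the open side of mouse 1 lay below the closed side of mice 2 and 3. Closed over open, the ratio was 0.731 in mouse 1, 0.379 in mouse 2 and 0.478 in mouse 3. The means were 11.7 ± 6.04 FPKM closed and 25.03 ± 15.1 FPKM open (SD, n = 3 each). In bulk tissue, fewer cells of a type and less message per cell cannot be told apart.

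Fos also differed between mice. On the closed side the highest library stood 2.98-fold above the lowest, and on the open side 4.56-fold, with mouse 1 lowest on both. The spread within sides was larger for Fos than for 99.2% of the 14788 rows tested. As differences on log2(FPKM + 1), closed minus open, mouse 1 gave -0.40, mouse 2 gave -1.32 and mouse 3 gave -1.02.

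Fosb, which is induced like Fos in neurons and also yields a stable truncated protein, measured 0.281, 0.487 and 0.869 FPKM on the closed side and 0.336, 0.821 and 2.82 FPKM on the open side of mice 1, 2 and 3. Again each of the 3 mice had less on the closed side, with ratios of 0.836, 0.593 and 0.308. The sides overlapped, and the open side of mouse 3 stood apart as the highest value. With a mean under 1 FPKM, Fosb missed the floor for the test across all rows. Fitted without that floor, its log2 change was -0.46 (SE 0.38, limma adjusted p = 1), and -0.03 without open replicate 3. That last fit kept the closed library of mouse 3, so differences between mice enter its value. Within mice 1, 2 and 3 the differences were -0.06, -0.29 and -1.03.

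Fosl1, which encodes Fra-1, is induced by growth signals and was close to undetected. It was listed at 0 in both libraries of mice 1 and 2, and measured 0.0253 FPKM on the closed and 0.0585 FPKM on the open side of mouse 3. These values equal 1 and 3 fragments, the smallest whole numbers in their ratio once library depth is allowed for. Counts this small cannot show a difference between sides.

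Fosl2, which encodes Fra-2, responds later and is retained longer than Fos. It measured 5.36, 4.82 and 5.13 FPKM on the closed side and 5.05, 6.29 and 6.34 FPKM on the open side of mice 1, 2 and 3. The within-mouse differences were 0.07, -0.32 and -0.26. The closed side was thus lower in mice 2 and 3, while in mouse 1 the sign turned to -0.03 with quantile normalization and -0.01 with median centring.

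Junb, a Jun protein that is itself an immediate early gene and a weaker activator than Jun, measured 15.4, 15.4 and 18.7 FPKM on the closed side and 14.7, 34.0 and 26.5 FPKM on the open side of mice 1, 2 and 3. The closed libraries lay close together, with a highest over lowest ratio of 1.21, while the open ones spread 2.31-fold. In mouse 1 the sides were nearly equal, with a ratio of 1.05, whereas mouse 2 gave 0.454 and mouse 3 gave 0.704. The log2 change was -0.25 without open replicate 2 and -0.83 without open replicate 1, against -0.50 with all libraries. In both fits the closed library of that mouse stayed in, so differences between mice enter these values.

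Jun, the main activating partner of Fos, measured 58.6, 61.1 and 69.6 FPKM on the closed side and 61.8, 67.9 and 61.5 FPKM on the open side of mice 1, 2 and 3. Its within-mouse differences were -0.08, -0.15 and 0.18. Its sign turned when each library was centred on its median and when small RNA rows were left out, so no direction is given.

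Jund, which is present in resting cells and changes little on stimulation in most tissues, measured 98.6, 110.0 and 117.3 FPKM on the closed side and 126.5, 102.8 and 92.4 FPKM on the open side of mice 1, 2 and 3. The mice differed in direction, with differences of -0.36, 0.10 and 0.34. On the open side mouse 1 was highest in Jund and lowest in Fos, whereas on the closed side it was lowest in both.

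Atf3, a stress-induced factor that pairs with Jun proteins and marks injured neurons, measured 2.34, 1.90 and 2.23 FPKM on the closed side and 2.68, 2.35 and 2.88 FPKM on the open side of mice 1, 2 and 3. In each of the 3 mice the closed value was the lower one, and Atf3 was the only tested member whose sides did not overlap, though the highest closed and the lowest open library were nearly equal. For comparison, 2.09% of all rows tested were lower on the closed side without overlap. The steps between its values amounted to 75, 107 and 104 fragments in the closed and 155, 106 and 174 fragments in the open libraries. The ratio of closed to open FPKM, with the 95% interval that counting alone gives, was 0.875 (0.664 to 1.15) in mouse 1, 0.805 (0.615 to 1.05) in mouse 2 and 0.776 (0.609 to 0.989) in mouse 3. Within a single mouse, only that of mouse 3 excluded equality.

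**Figure D2:**
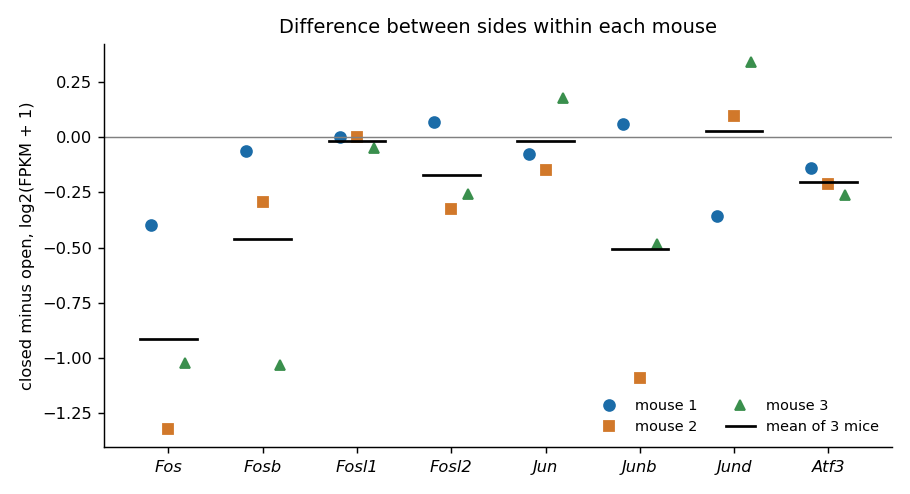
Difference between sides within each mouse (closed minus open, on log2(FPKM + 1)) for the 8 genes, with 1 point per mouse and a bar at the mean. Fos ran from -1.32 to -0.40 and Atf3 from -0.26 to -0.14 (-0.23 to -0.08 with quantile normalization), while Jun and Jund lay on both sides of 0.

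The balance between the families varied as Fos did, which follows in large part from Fos being the largest term of its family sum in every library. Summed over Fos, Fosb, Fosl1 and Fosl2, the Fos family reached 11.7, 16.3 and 24.1 FPKM on the closed side and 13.7, 36.1 and 47.0 FPKM on the open side of mice 1, 2 and 3. The Jun family, Jun, Junb and Jund together, reached 172.6, 186.6 and 205.7 FPKM closed and 203.1, 204.7 and 180.5 FPKM open. The ratio of the Fos to the Jun family was therefore 0.0679, 0.0874 and 0.117 closed, against 0.0674, 0.176 and 0.261 open. In mouse 1 this ratio was nearly the same on both sides.

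None of the 6 members tested passed the test across all rows, in which limma on log2(FPKM + 1), at a Benjamini-Hochberg adjusted p under 0.05, called 0.0406% of 14788 rows lower and 0.00676% higher on the closed side. At an unadjusted p under 0.05 none of the members was called either, against 0.866% of rows lower and 0.588% higher. The log2 changes were -0.91 for Fos (SE 0.54), -0.50 for Junb (SE 0.26), -0.20 for Atf3 (SE 0.13), -0.17 for Fosl2 (SE 0.13), -0.02 for Jun (SE 0.11) and 0.03 for Jund (SE 0.14), each with a limma adjusted p of 0.99999. This fit took the side as its only term and did not pair the libraries of a mouse, so each SE includes the spread between mice. Of the 6, 5 were below 0, as were 54% of all rows, and 2 (Fos and Atf3) were lower in 3 of 3 mice, as were 9.18% of all rows. None was higher in 3 of 3 mice, against 7.41% of all rows. Only 0.507% of rows had a lower log2 change than Fos and 0.852% a lower one than Junb.

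With the mouse as a block, which compares the sides within mice, the SE of Fos dropped to 0.18 and its unadjusted p to 0.00269, with a limma adjusted p of 0.994. It was the only member under 0.05 unadjusted in the blocked fit, where 1.3% of rows were lower and 1.08% higher at that level. Junb had a blocked SE of 0.21 and an unadjusted limma p of 0.0574, and Atf3 0.12 and 0.148. After adjustment the blocked fit called 0.027% of rows lower and 0.00676% higher, none of them a member. A p above the threshold does not show that the sides are alike.

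**Figure D3:**
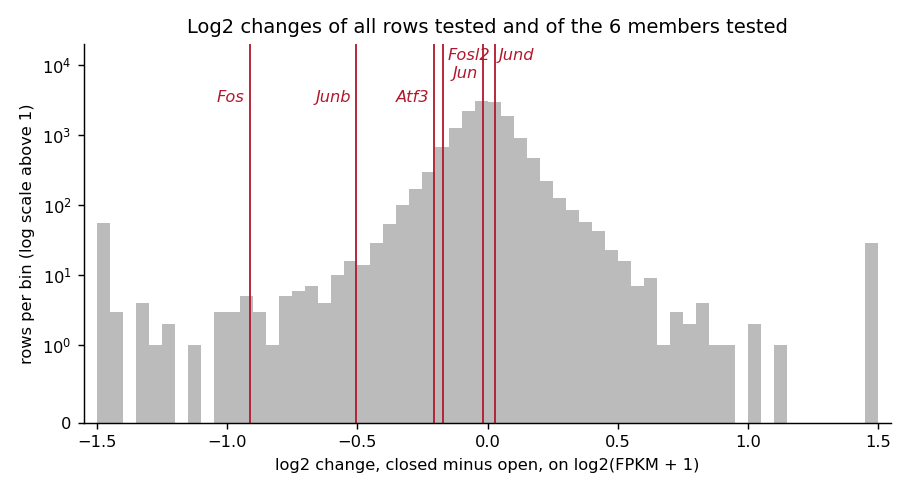
Log2 changes (closed minus open, on log2(FPKM + 1)) of all 14788 rows tested, with the 6 members tested as red lines. The outermost bars hold all rows beyond -1.5 and 1.5. Fos at -0.91 and Junb at -0.50 lie in the lower tail, and Jun and Jund in the bulk of the rows. Atf3 and Fosl2 lie near the lower edge of the bulk, with 5.17% and 7.63% of rows below them.

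For scale, S100a5, a calcium-binding protein of olfactory neurons, fell to 239.0, 300.5 and 208.0 FPKM in the closed libraries, against 1997, 2102 and 1951 FPKM in the open ones (log2 change -3.03, SE 0.19, limma adjusted p = 0.000888). Its sides did not overlap, whereas those of Fos did. Omp, the olfactory marker protein, had a log2 change of 0.26 (SE 0.25).

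Several other immediate early genes also had their lower value on the closed side of every mouse. Egr1, a zinc finger factor, measured 10.9, 14.2 and 24.5 FPKM on the closed side and 13.6, 32.8 and 36.1 FPKM on the open side of mice 1, 2 and 3. Nr4a1, an orphan nuclear receptor, measured 7.95, 12.4 and 11.3 FPKM closed and 9.58, 20.4 and 26.9 FPKM open. Dusp1, a phosphatase that switches off mitogen-activated kinases, measured 27.7, 24.6 and 33.6 FPKM closed and 34.8, 62.0 and 45.8 FPKM open, without overlap. Such a fall without overlap was seen in 2.09% of all rows tested. Of 26 tested genes in a list of Egr, Nr4a, Dusp and other immediate early genes, none passed the test. Among them 19 were below 0, as were 54% of all rows, and 7 were lower in 3 of 3 mice, as were 9.18%. The median log2 change was -0.10 against -0.01 over all rows. By mouse, the median difference of the list was -0.004 in mouse 1, -0.22 in mouse 2 and -0.20 in mouse 3. Btg2, an antiproliferative gene, had a log2 change of -0.35, though in mouse 1 its closed side was slightly higher (21.3 against 20.9 FPKM). Ier3, a stress-response gene, had one of -0.32.

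As a measure of likeness, Pearson's r of log2(FPKM + 1) over the 6 libraries was taken between Fos and every row tested, as a description in which libraries of a mouse share that mouse. The most alike rows were Nedd9 (0.997), Tor1aip1 (0.993), Egr1 (0.990), Pde4b (0.990) and Ccny (0.988). Nedd9 is a scaffold of adhesion signaling, Tor1aip1 a protein of the inner nuclear membrane, Pde4b a phosphodiesterase that degrades cyclic AMP and Ccny a cyclin. Nedd9 measured 8.52, 10.1 and 11.8 FPKM closed and 9.75, 13.9 and 14.9 FPKM open, a far narrower range than that of Fos. Among the members, Junb stood at 0.885 to Fos, Fosl2 at 0.775, Jun at 0.536, Atf3 at 0.342 and Jund at -0.44.

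Jun had another set of most alike rows, led by Wdr20 (0.976), Pom121 (0.975), 1700101E01Rik (0.965), Susd2 (0.959) and Klhl3 (0.955). Pom121 is a nuclear pore protein, and Wdr20 regulates deubiquitinating enzymes. Susd2 measured 5.55, 6.19 and 7.46 FPKM closed and 5.69, 7.06 and 5.85 FPKM open. Jun itself varied little within sides, only 17.0% of rows having a smaller spread. Such values over 6 libraries, picked as the highest of 14788, are a description of these libraries.

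**Figure D4:**
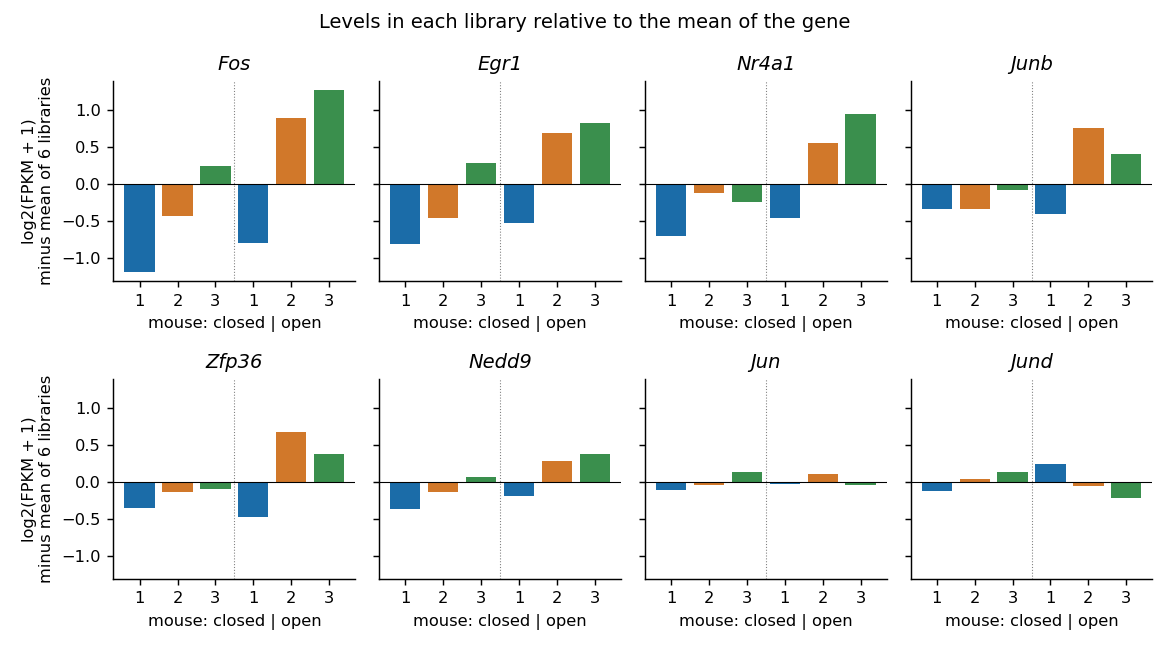
Level of 8 genes in each library, as log2(FPKM + 1) minus the mean of the gene over the 6 libraries, with the closed side left of the open side and 1 color per mouse. Fos, Egr1 and Nr4a1 were lowest on the closed side of mouse 1 and highest on the open side of mouse 3, Junb and Zfp36 were highest on the open side of mouse 2, and Jun and Jund stayed between -0.21 and 0.23.

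Other bZIP proteins, some of which pair with Fos or Jun, lay about evenly on both sides of 0. Of 22 tested, none passed the test, 12 were below 0, and the median log2 change was -0.02. Maff, a small Maf protein that lacks an activation domain, measured 4.82, 5.79 and 5.02 FPKM closed and 7.23, 6.59 and 7.13 FPKM open, without overlap (log2 change -0.36, SE 0.12, limma unadjusted p = 0.014, adjusted p = 0.99999). Ddit3, a factor of the unfolded protein response, had a log2 change of 0.20 and Nfe2, an erythroid factor, one of 0.19.

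Upstream of Fos and Jun, 32 kinases and regulators were tested and none passed, with log2 changes from -0.20 for Elk3, a partner of serum response factor, to 0.12. They were balanced about 0, with 17 of the 32 below it and a median of -0.0015. Rps6ka1, a kinase that acts below the ERK kinases, stood at -0.12, the neuronal JNK kinase Mapk10 at -0.11 and the protein kinase A subunit Prkacb at -0.09. Of 14 genes that control decay of Fos and Jun message or protein, none passed, and the median log2 change was -0.04. Zfp36, which binds AU-rich elements and speeds decay of immediate early messages, measured 13.6, 15.9 and 16.4 FPKM closed and 12.4, 28.7 and 23.2 FPKM open, a profile close to that of Junb. Its relatives Zfp36l2 and Zfp36l1 had log2 changes of -0.17 and -0.11, and Det1, part of a ubiquitin ligase for Jun, one of 0.07.

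Genes described as AP-1 targets were spread about 0. Of 35 with a row, 28 were tested and none passed, with 19 below 0, a median of -0.03 and a range from -0.35 to 0.25. The lowest was Nptx2, a secreted neuronal pentraxin, at 18.8, 20.5 and 26.0 FPKM closed against 26.8, 24.5 and 32.2 FPKM open. The highest was Hmox1, heme oxygenase, at 12.3, 13.2 and 12.3 FPKM closed against 11.4, 10.6 and 9.41 FPKM open, without overlap. Such a rise without overlap was seen in 1.28% of all rows tested. The protease Mmp9 stood at -0.25 and the urokinase receptor Plaur at 0.17. The 7 stress-induced chaperones, which rise with heat and handling, had a median of -0.03, with 6 below 0. The mice differed, with medians of -0.36, 0.07 and 0.07 in mice 1, 2 and 3. The lowest was Hspa1b at -0.29, followed by Hspb1 at -0.14, Dnajb1 at -0.07 and Hsph1 at -0.03, none past the test.

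Markers of the cell types in the mucosa were set beside these values. None of the marker genes of mature or immature neurons, sustentacular cells, basal cells, glands, ciliated cells, macrophages, neutrophils, endothelium, fibroblasts, glia or red cells passed the test, and none with a row was at 0 in all libraries. The gland list moved with the side: summed, it stood at 478.3 to 1844 FPKM closed and 3619 to 4546 FPKM open, with 8 of 11 genes lower in 3 of 3 mice and Obp1a, an odorant-binding protein, at a log2 change of -4.26. Mature neuron markers summed to 4703 to 6358 FPKM closed and 3543 to 5508 FPKM open, with 3 of 14 below 0, against 54% of all rows. Their median log2 change was 0.26, and 0.08 to 0.40 with 1 library left out. By mouse their median difference was -0.08 in mouse 1, 0.26 in mouse 2 and 0.50 in mouse 3. Sustentacular markers summed to 5451 to 5723 FPKM closed and 5741 to 7691 FPKM open, the highest in the open library of mouse 2, where Junb and Zfp36 were also highest. Glial markers summed to 296.2 to 374.7 FPKM closed and 324.6 to 649.8 FPKM open, the highest in the open library of mouse 3, where Fos and Fosb were also highest. Other lists peaked in these libraries too. Horizontal basal cells (167.5 FPKM) and macrophages (189.9 FPKM) were highest in the open library of mouse 2. Glands and endothelium (94.9 FPKM) were highest in that of mouse 3. The median log2 change was -0.13 for sustentacular cells, but 0.005 without open replicate 2. For glia it was -0.29, but -0.03 without open replicate 3. The part of any cell type in the values of Fos, Fosb and Junb was not tested.

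Of the other lists, horizontal basal cells had a median log2 change of -0.23 (-0.11 without closed replicate 1 and -0.13 without open replicate 2) and macrophages one of -0.16 (-0.03 without open replicate 2). That of neutrophils was 0.46, but 0.22 without closed replicate 2, 0.30 without closed replicate 1 and 0.78 without closed replicate 3. The remaining lists had no direction that held when 1 library was left out and the other library of that mouse was kept. Endothelium stood at -0.15 and fibroblasts at -0.11, and these turned to 0.10 and 0.11 without closed replicate 1. Immature neurons at 0.08, ciliated cells at 0.01 and red cells at 0.03 likewise had values on both sides of 0. Sequencing yielded 24958172 to 39595257 reads in the closed and 33945264 to 43584803 reads in the open libraries. The RNA integrity number was 10 throughout. Closed replicate 1 was the shallowest and held 11.3% of its FPKM in small RNA rows, while the remaining libraries held 3.47% to 5.27%.

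**Figure D5:**
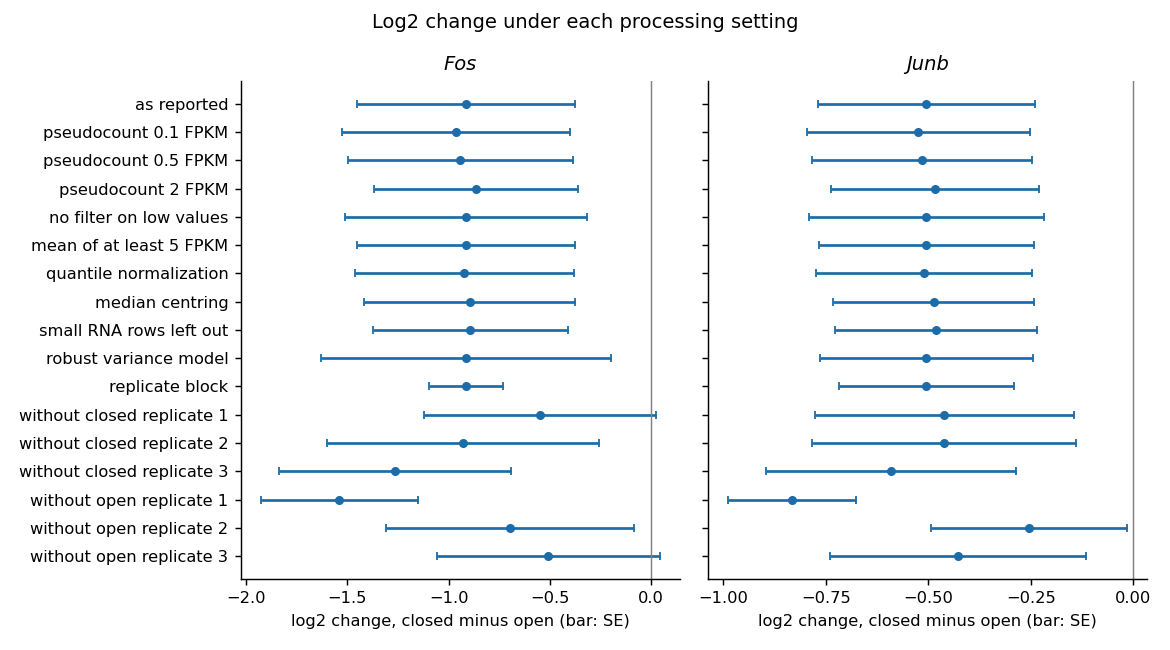
Log2 change of Fos and Junb (closed minus open, with SE bars) under each processing setting. Fos ranged from -1.54 without open replicate 1 to -0.51 without open replicate 3, and its SE was smallest with the mouse as a block. A fit with 1 library left out kept the other library of that mouse, so differences between mice enter its value.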

How the data were processed

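Per the file headers, the authors deposited 1 FPKM value per gene and library, and the submitters' processing notes name Cufflinks and mm9, with no version. No source used here states the aligner, the annotation or the strand setting. Per the labels' protocols, RNA came from a Qiagen RNeasy micro kit and libraries were made with TruSeq. The deposited sheets also give the read count, the fraction of reads aligned (0 to 1), scores (RNA integrity, coverage uniformity) and the 28S over 18S ratio of each library, and state that equal numbers mark the same mouse.

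FPKM are not counts, so log2(FPKM + 1) was fitted by limma (version 3.58.1, R version 4.3.3), using lmFit and eBayes with trend, over 14788 rows averaging 1 FPKM or more, with Benjamini-Hochberg adjustment at 0.05. The code was tested on simulated data. The main fit had the side as its only term and left out the pairing by mouse. Fits with the replicate number as block, other pseudocounts (0.1, 0.5 and 2 FPKM), other floors, other scalings and each library left out were alternatives. Leaving out 1 library kept the other library of that mouse, so differences between mice enter those fits. Deviations from side means correlated across genes at 0.15, 0.08 and 0.21 for mice 1, 2 and 3. Closed and open libraries of different mice gave -0.17 to 0.008. Values of low rows came in steps worth 1 fragment, which gave the relative depth of the libraries. A gene's values were called whole where all lay within 0.05 fragments of a whole number, searched up to 300 in the lowest library, which held for Atf3 and Fosl1. Counting errors cover counting only.

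Named genes are the 8 members, of each list the up to 4 with the largest moderated t, the 5 rows most alike to Fos and to Jun, and Egr1, Nr4a1, Dusp1, Omp, S100a5 and Pcp4l1. Members, lists and rules were chosen with earlier results of these data known. One gene named by the rule is not reported here. The others with no value in the text were not past the test, apart from Pcp4l1 (log2 change -1.53, limma adjusted p = 0.00379).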

Additional observations from a re-analysis of the deposited data

How the results depend on the processing

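No member passed the test under any of the settings tried, which were 16 for Fos, Junb, Jun, Jund and Fosl2, 15 for Atf3 and 14 for Fosb. Fos kept a negative log2 change throughout, at -0.97 to -0.86 under other pseudocounts and scalings, and at -1.54 to -0.51 with 1 library left out. Other floors, the other variance model and the replicate block leave the log2 change at -0.91 by construction and alter only its SE and p. Fos was at -0.55 without closed replicate 1, -1.54 without open replicate 1 and -0.51 without open replicate 3. Each fit with 1 library left out kept the other library of that mouse, so differences between mice enter its value. Junb ranged from -0.83 to -0.25, Fosl2 from -0.26 to -0.12, Atf3 from -0.28 to -0.14 and Fosb from -0.81 to -0.03. Fosb was -0.79 without open replicate 1, and -0.81 with a pseudocount of 0.1 FPKM, which shrinks low values less. Jun turned to 0.0015 with median centring and 0.0090 with small RNA rows left out, and ran from -0.088 to 0.035 with 1 library left out. Jund ran from -0.072 to 0.15 with 1 library left out. Within mice, Atf3 stayed below 0 but ran from -0.22 (median centring) to -0.07 (small RNA rows left out) in mouse 1, from -0.30 (pseudocount of 0.1 FPKM) to -0.08 (quantile normalization) in mouse 2 and from -0.35 (pseudocount of 0.1 FPKM) to -0.20 (pseudocount of 2 FPKM) in mouse 3. That of Fosb in mouse 3 was -1.59 with a pseudocount of 0.1 FPKM, against -1.03. Junb in mouse 1 turned to -0.02 with median centring and Jun in mouse 1 to 0.02 with small RNA rows left out. The cause was not tested. The count of rows past the test was 6 lower and 1 higher. It became 3 lower with no filter on low values and 0 higher with small RNA rows left out, and with 1 library left out it ran from 3 to 10 lower and from 1 to 2 higher. The replicate block gave 4 lower and 1 higher and changed no call of a member. For Fosl1, at 1 and 3 fragments in 2 libraries and 0 in the others, no log2 change is given. For Fosb, Fos, Fosl2, Jun, Junb and Jund counting error could not be separated from the spread between libraries.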
